A study of Mus musculus with 4 samples.

Results

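Trbv transcripts, the messages of the variable gene segments of the T cell receptor beta chain, were read from the RNA count matrices of leukocytes sorted from mouse melanomas. The members are the 35 gene symbols that start with Trbv among the 31053 genes listed. They were counted in barcodes, the tags of single droplets, with at least 1000 UMIs (unique molecular identifiers, the counted molecules), at least 500 genes, at most 10% mitochondrial UMIs and at least 1 UMI over Cd3d, Cd3e and Cd3g, which encode the CD3 chains that carry the receptor. This T gate held 1150 of 3211 barcodes that passed the other filters in the library labelled KO and 875 of 4370 in the library labelled WT. Both groups are male C57BL/6 mice that received B16 melanoma cells, a transplantable line of the same strain, in the flank. The genotypes are given as ATPIF1 knock-out and wild-type, with no agent given to either and no age stated. Tumours were taken on day 12, the tumour suspensions of each genotype were mixed, and CD45+ cells were sorted. The design names 6 mice without saying whether per genotype. Each genotype has 1 RNA library made with 5′ chemistry and 1 receptor library that holds assembled contigs, 4 libraries in all. There was therefore no replicate and no test between genotypes, and every interval given is a 95% exact interval that covers counting error only. The labels do not say how the knock-out was made.

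Every T cell that bears an alpha-beta receptor joins 1 V, 1 D and 1 J segment of the beta locus to make its beta chain, and in most cells a single rearranged allele is in frame. The joint codes for CDR3, the loop that meets the peptide, so cells with the same CDR3 nucleotide sequence are taken as the progeny of 1 cell, a clonotype. Barcodes were grouped here by their whole set of productive beta chain (TRB) CDR3 sequences. A barcode with a further sequence was therefore counted apart from those that share only 1 sequence with it. Reads from the 5′ end of the message cover the V segment, and so a count matrix of this kind holds a direct readout of V gene use. The V segment also carries the CDR1 and CDR2 loops, which contact the presenting molecule and, for some segments, bacterial or viral superantigens. In C57BL/6 mice Trbv13-2 is the segment also called V beta 8.2, Trbv4 is V beta 10 and Trbv29 is V beta 7.

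The clonotypes that the results turn on are shown first, as the CDR3 nucleotide sequence of the deposited contigs with its first 11 bases in capitals, the end that the V segment largely encodes. The first 4 were seen in the library labelled KO and the last in the library labelled WT.
Trbv4 clonotype of 28 barcodes: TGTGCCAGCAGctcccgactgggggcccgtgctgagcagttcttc
Trbv29 clonotype of 28 barcodes: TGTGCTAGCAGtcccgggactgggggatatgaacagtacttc
Trbv13-2 clonotype of 17 barcodes: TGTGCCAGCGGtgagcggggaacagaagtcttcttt
Trbv13-1 clonotype of 4 barcodes: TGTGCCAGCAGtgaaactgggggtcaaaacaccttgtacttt
Trbv3 clonotype of 4 barcodes: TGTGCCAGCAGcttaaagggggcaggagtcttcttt
No TRB CDR3 nucleotide sequence occurred in T gate barcodes of both libraries.

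The libraries held 24385843 UMIs (KO) and 35152477 UMIs (WT), and the median T gate barcode had 2450 UMIs (KO) and 2927 UMIs (WT). Atpif1, the gene named as knocked out, stood at 409 CPM (counts per 1e6 UMIs of the gate; 1905 UMIs) in the T gate of the library labelled KO and at 260 CPM (967 UMIs) in that of the library labelled WT. It was thus not lower where the label says KO, a 5′ count outside a deleted part would check nothing, and the part deleted is not given in the sources used here; the names KO and WT below are those of the labels. Of the 6 T markers Cd3d, Cd3e, Cd3g, Trac, Trbc1 and Trbc2, all were detected in both T gates. Markers of other cells were present too: 5 of 5 myeloid markers summed to 3657 CPM in the KO and 3729 CPM in the WT T gate, 4 of 4 B cell markers to 10.7 and 60.3 CPM, and 2 of 2 neutrophil markers to 39.9 and 645 CPM. The 4 gamma-delta T cell markers, whose cells need no Trbv message, summed to 54.5 CPM (KO) and 73.7 CPM (WT). This sum mixes opposite moves. Trdc, of the delta chain, stood at 14.2 CPM (KO) and 41.2 CPM (WT), and Tcrg-C2, of the gamma chain, at 25.1 and 7.0 CPM. A total of 29 barcode sequences passed the filters in both RNA libraries, 2 of them in both T gates. A KO T gate barcode had a productive contig in the WT receptor table in 4 cases, and a WT one in the KO table in 5.

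All 35 identifiers matched the RefSeq gene table of build GRCm38.p6, which places them on chromosome 6 between positions 40891296 and 41558371. The segments run from Trbv1 at the start of this stretch to Trbv30, which ends at 41281990, before the constant genes Trbc1 and Trbc2. Trbv31 alone lies beyond Trbc2, which ends at 41548181. RefSeq lists 22 of the 35 as V segments and 13 as V segment pseudogenes. UMIs in a T gate were found for 23 members. The 12 members at 0 in both T gates were Trbv6, Trbv7, Trbv8, Trbv9, Trbv10, Trbv11, Trbv12-3, Trbv18, Trbv22, Trbv25, Trbv27 and Trbv28, and RefSeq lists each of these 12 as a pseudogene. A count of 0 allows a share of up to 0.651% of the 461 assigned KO barcodes and 0.711% of the 422 assigned WT barcodes. Trbv21 had 1 UMI, in the WT T gate. The remaining RefSeq pseudogene, Trbv29, was instead among the most used segments, with 126 UMIs (KO) and 56 UMIs (WT), and 62 T gate barcodes had a productive TRBV29 contig. Among the used segments the number of UMIs ran from 5 for Trbv30 to 290 for Trbv13-2 over both T gates.

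Trbv messages were found in a large part of the T gate barcodes and rarely in cell barcodes without Cd3 UMIs. At least 1 Trbv UMI was found in 486 of 1150 KO T gate barcodes, 42.3% (interval 39.4% to 45.2%), and in 442 of 875 WT T gate barcodes, 50.5% (47.1% to 53.9%). Among barcodes without Cd3 UMIs, the share was 4 of 1256 KO and 11 of 1699 WT myeloid barcodes (at least 5 Lyz2 UMIs), 0.318% and 0.647%, at median depths of 5964 UMIs (KO) and 7356 UMIs (WT). In B cell barcodes without Cd3 UMIs (at least 2 UMIs over Cd79a and Cd79b) it was 0 of 50 in the KO library, which allows a share of up to 6%, and 2 of 373 in the WT library, 0.536%. Their median depths were 1742 UMIs (KO) and 1861 UMIs (WT). Empty droplets of 10 to 100 UMIs held a Trbv UMI in 0.887% of 57860 barcodes (KO) and 0.607% of 61754 (WT), at median depths of 56 UMIs (KO) and 60 UMIs (WT). Per UMI, these droplets were not poor in Trbv messages: they made up 265 CPM (KO) and 176 CPM (WT) in empty droplets, and 240 CPM (KO) and 264 CPM (WT) in the T gate. The 851 KO and 642 WT Trbv UMIs lay in 513 and 375 droplets, so some droplets held more than 1. Whether they come from free RNA or from T cells of low RNA content was not tested.

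Detection varied with the gate. The CD8 gate (Cd8a or Cd8b1 present, Cd4 and Foxp3 at 0) had a Trbv UMI in 56.0% of 436 KO and 60.3% of 297 WT barcodes. The CD4 gate (Cd4 present, Cd8a, Cd8b1 and Foxp3 at 0) had one in 40.7% of 113 KO and 56.9% of 65 WT barcodes. The Foxp3 gate (Foxp3, the factor that defines regulatory T cells, present without Cd8a or Cd8b1) had one in 49.1% of 55 KO and 66.7% of 42 WT barcodes. Barcodes in none of these gates, called unassigned here, had one in 31.0% of 546 KO and 42.0% of 471 WT barcodes. The share was lower in the KO library in all 4 gates, but the KO barcodes were also shallower in 3 of them, the Foxp3 gate being the exception at a median of 5869 UMIs (KO) against 3956 UMIs (WT). After each barcode was thinned to 1000 UMIs, the T gate shares were 20.8% (interval 18.5% to 23.2%) in KO and 22.5% (19.8% to 25.4%) in WT. These intervals overlap, but they leave out the noise of the random draw, and each set of barcodes had its own draw. In WT the thinned counts of 76 (CD8), 24 (CD4), 10 (Foxp3) and 112 (unassigned) add up to more than the 197 of the T gate. The thinned shares of KO and WT are therefore approximate. In the CD8 gate the thinned shares were 24.3% (KO) and 25.6% (WT). In the Foxp3 gate they were 20% (10.4% to 33.0%), 11 of 55 KO barcodes, and 23.8% (12.1% to 39.5%), 10 of 42 WT barcodes, in a single draw. The KO barcodes of this gate were the deeper ones, and Trbv RNA made up 191 CPM (KO) and 343 CPM (WT) of it. In the unassigned gate the thinned shares were 16.1% (13.1% to 19.5%) in KO and 23.8% (20% to 27.9%) in WT. In the CD4 gate they were 20.4% (13.4% to 29.0%) and 36.9% (25.3% to 49.8%).

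**Figure D1:**
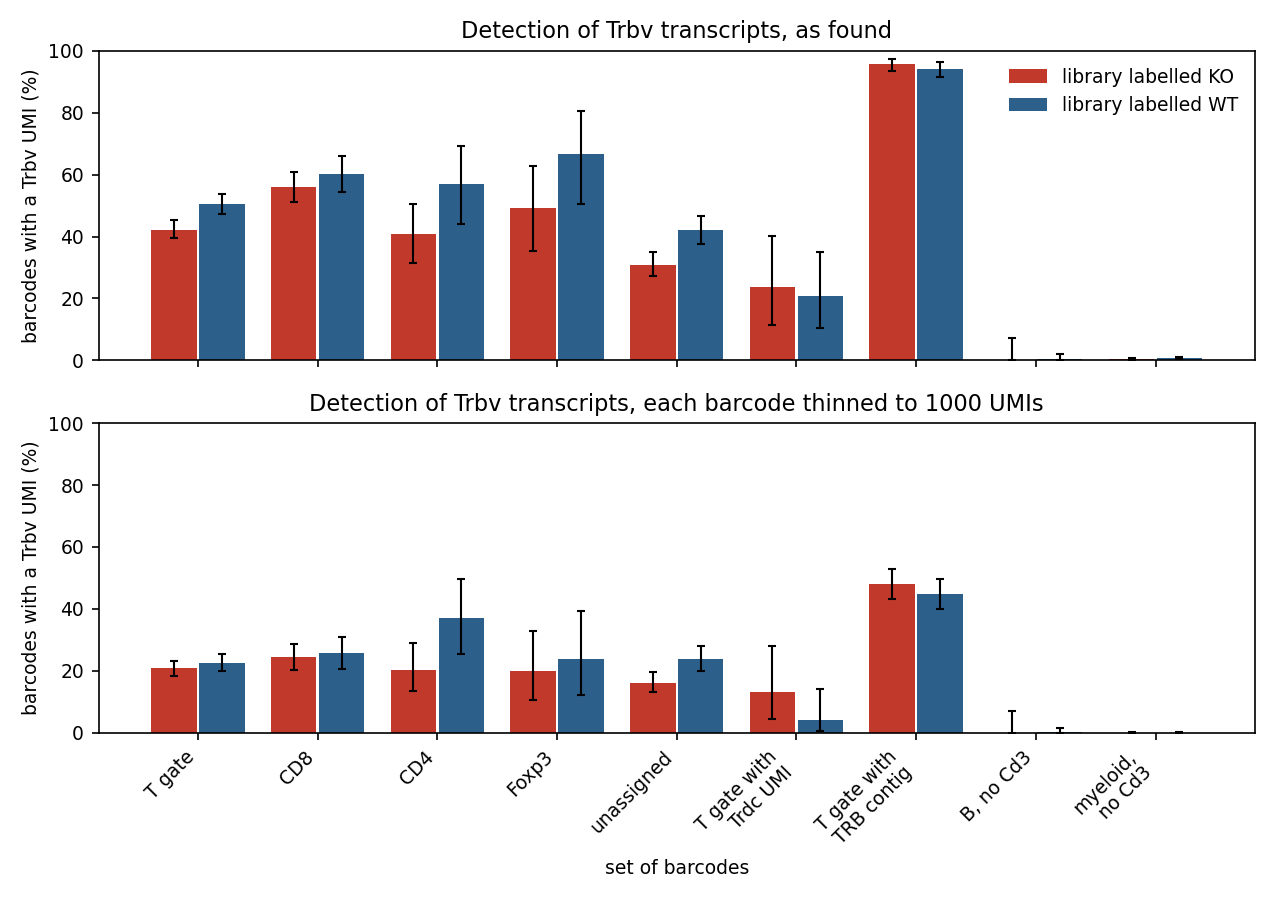
Percentage of barcodes with at least 1 Trbv UMI (vertical axis) in each gate and in sets used for comparison (horizontal axis), KO bars left of WT bars, as found (top) and after thinning each barcode to 1000 UMIs (bottom); error bars are 95% exact binomial intervals for counting error. T gate barcodes stand at 42.3% (KO) and 50.5% (WT), barcodes with a TRB contig near the top of the scale at 95.8% and 94.2%, and B and myeloid barcodes without Cd3 close to 0.

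Detection also moved with the amount of other receptor RNA, in sets of barcodes that differed in depth too. T gate barcodes with a single Cd3 UMI had a Trbv UMI in 20.3% (KO) and 30.9% (WT) of cases, and those with at least 2 in 47.2% (KO) and 54.5% (WT). Barcodes with a UMI of Trbc1 or Trbc2, the constant segments of the beta chain, had one in 50.2% (KO) and 58.6% (WT). Barcodes with a UMI of Trdc, the constant segment of the delta chain, had one in 9 of 38 KO and 10 of 48 WT barcodes, 23.7% and 20.8%. With a productive TRB contig in the receptor table, the share was 95.8% of 424 KO and 94.2% of 400 WT barcodes. The messages were sparse: 47.9% of KO and 46.6% of WT barcodes with a Trbv UMI had exactly 1, and the highest barcode had 14 UMIs in KO and 19 in WT.

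The RNA counts gave a V gene in more barcodes than the contigs did. In the KO T gate 406 barcodes had both a Trbv UMI and a productive TRB contig, 80 had the UMI alone and 18 the contig alone. In the WT T gate 377 had both, 65 the UMI alone and 23 the contig alone. Barcodes with either readout thus numbered 504 (KO) and 465 (WT), against 424 (KO) and 400 (WT) with a contig. The authors' cell call in the receptor tables kept 242 (KO) and 201 (WT) of the T gate barcodes that had a productive contig.

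Where both readouts named 1 gene, the same gene nearly always came up once the 2 naming systems were brought together. Each barcode was assigned the Trbv gene with most UMIs, and ties, 25 barcodes in KO and 20 in WT, were left out. Barcodes whose contig had the joint name TRBV12-2+TRBV13-2, 46 KO and 37 WT ones with an assigned gene, were at first left out. Over the rest, as named in the files, the assigned gene equalled the V gene of the contig in 289 of 335 KO barcodes, 86.3%. In WT it did so in 304 of 322 barcodes, 94.4%. Of the 46 KO and 18 WT barcodes that differed, 44 KO and 15 WT barcodes were named TRBV10 in the contig table and led by Trbv4 in the RNA. RefSeq lists Tcrb-V10 as a synonym of Trbv4, and its own Trbv10 is a pseudogene at 0 UMIs here. With that synonym applied and the joint name read as Trbv13-2, the names were equal in 379 of 381 KO barcodes, 99.5% (98.1% to 99.9%). In WT they were equal in 356 of 359 barcodes, 99.2% (97.6% to 99.8%). Both readings were chosen after the mismatches and the leading RNA genes were seen. Agreement of the TRBV10 and joint-name barcodes, 44 and 46 in KO and 15 and 37 in WT, follows from these readings and is no independent check. The 5 remaining pairs were 1 barcode each: TRBV12-2 with Trbv31 and TRBV29 with Trbv19 in KO, and TRBV19 with Trbv31, TRBV20 with Trbv12-2 and TRBV30 with Trbv16 in WT.

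**Figure D2:**
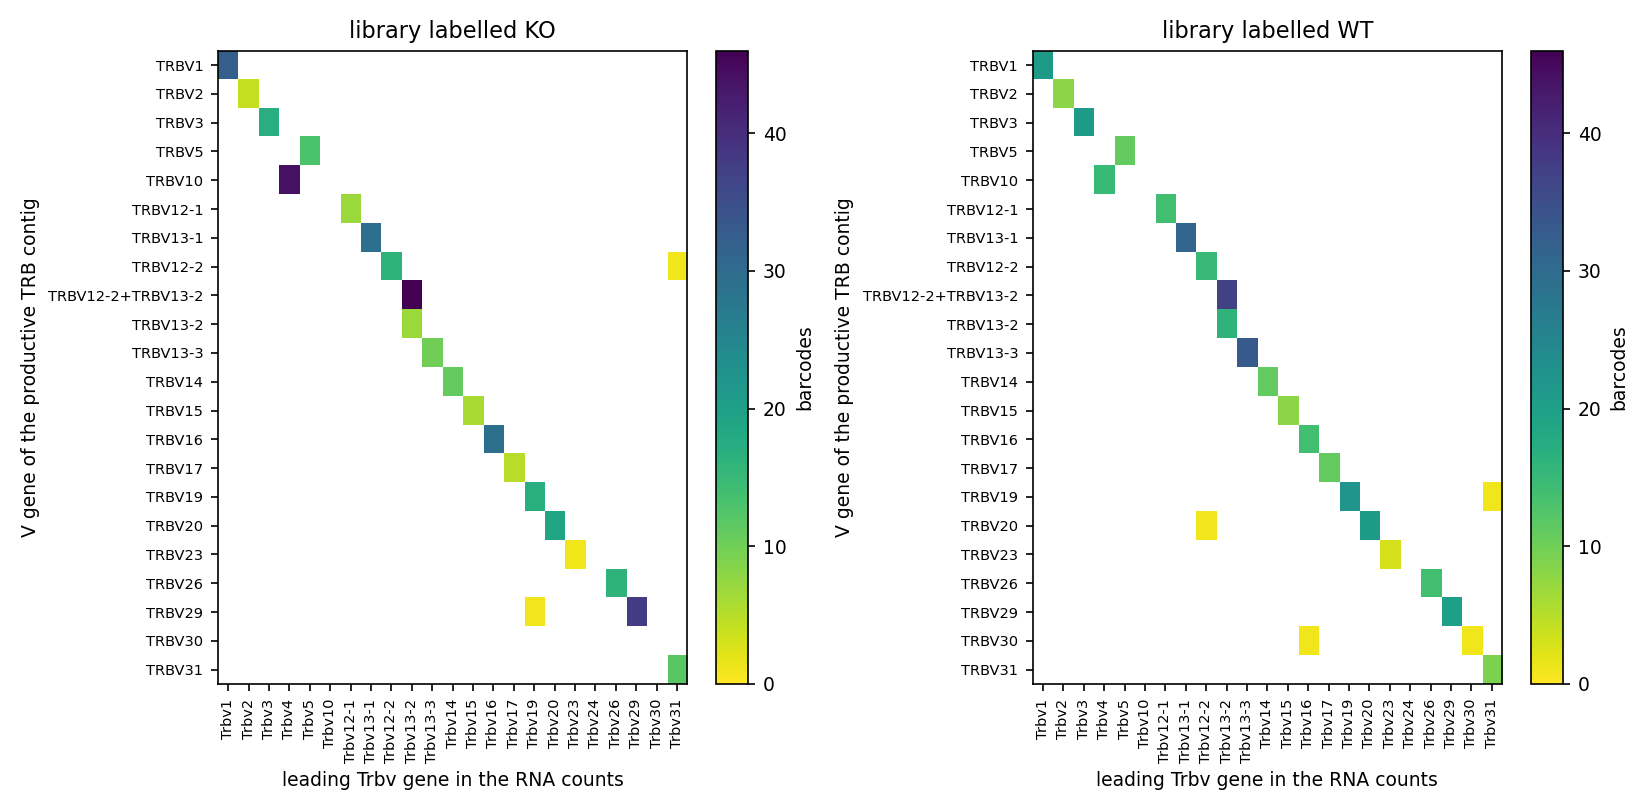
Number of T gate barcodes (colour) for each V gene of the productive TRB contig (vertical axis) and each leading Trbv gene in the RNA counts (horizontal axis), KO left and WT right, blank where there is none. Nearly all barcodes lie on the diagonal; the TRBV10 row meets the Trbv4 column with 44 (KO) and 15 (WT) barcodes and the joint TRBV12-2+TRBV13-2 row meets the Trbv13-2 column with 46 and 37.

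The joint name TRBV12-2+TRBV13-2 stood in the contigs of 51 KO and 39 WT barcodes. These were led by Trbv13-2 in 46 KO and 37 WT barcodes and by Trbv12-2 in 0 of them. The first 11 bases of the CDR3 sequences sorted the same way. The most frequent starts over distinct CDR3 sequences of both libraries are shown with bases 10 and 11, counted from the first base of the CDR3, in capitals.
TRBV12-2+TRBV13-2, 69 of 73 sequences: tgtgccagcGG
TRBV13-2 alone, 23 of 23 sequences: tgtgccagcGG
TRBV12-2 alone, 36 of 37 sequences: tgtgccagcTC
TRBV12-1, 23 of 24 sequences: tgtgccagcTC
TRBV10, 29 of 33 sequences: tgtgccagcAG
The joint name therefore shared its start with TRBV13-2 and, in 73 sequences, the TRBV12-2 start was seen 0 times. The TRBV10 start does not identify that segment. It was also the most frequent start of TRBV13-1, TRBV13-3, TRBV14, TRBV15, TRBV19, TRBV2, TRBV26, TRBV3 and TRBV5. The Trbv4, Trbv13-1 and Trbv3 clonotypes shown first all open with it. The counts of Trbv12-1 and Trbv12-2, and those of Trbv13-1, Trbv13-2 and Trbv13-3, are read as uncertain where reads could fit more than 1 copy of the same family. Ties left out, no barcode with a contig of 1 of these 5 genes was led in the RNA by another of them. Other segments also differed before base 10: tgcacctgcAG opened 57 of 57 TRBV1 sequences, tgtgcaagcAG 40 of 40 TRBV16 sequences and tgtgctagcAG 35 of 37 TRBV29 sequences.

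Recovery of a segment, the share of its contig barcodes with at least 1 UMI of the matching Trbv gene, was 766 of 808 over both libraries. For the 19 genes with at least 10 contig barcodes, the median was 95.9%, and Trbv12-1, Trbv13-3, Trbv15 and Trbv3 reached 100%. Trbv5 was the only one under 80%, at 24 of 35 barcodes, 68.6% (50.7% to 83.1%), with 13 of 17 in KO and 11 of 18 in WT. The RNA counts thus missed Trbv5 in 11 of its 35 contig barcodes. Trbv24 had 3 KO and 9 WT UMIs and no productive contig.

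V gene use was broad in both libraries. Among the 461 KO and 422 WT assigned barcodes, 22 genes led at least 1 barcode in each library, and the 3 most used genes of each took 33.8% (KO) and 31.8% (WT). These are shares of barcodes, not expression levels of the genes. Trbv13-2 led most barcodes in both libraries, 64 in KO (13.9%, interval 10.9% to 17.4%) and 62 in WT (14.7%, 11.5% to 18.4%). In KO it was followed by Trbv29 (47 barcodes, 10.2%), Trbv4 (45, 9.76%), Trbv1 (36, 7.81%), Trbv16 (33, 7.16%) and Trbv13-1 (31, 6.72%). In WT it was followed by Trbv13-3 (38, 9.0%), Trbv13-1 (34, 8.06%), Trbv19 (27, 6.40%), Trbv29 (26, 6.16%), Trbv1 (24, 5.69%) and Trbv12-2 (24, 5.69%). Neighbours in either order did not differ beyond their counting intervals. Trbv23, Trbv24 and Trbv30 led 4, 1 and 1 KO barcodes and 3, 2 and 1 WT barcodes.

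**Figure D3:**
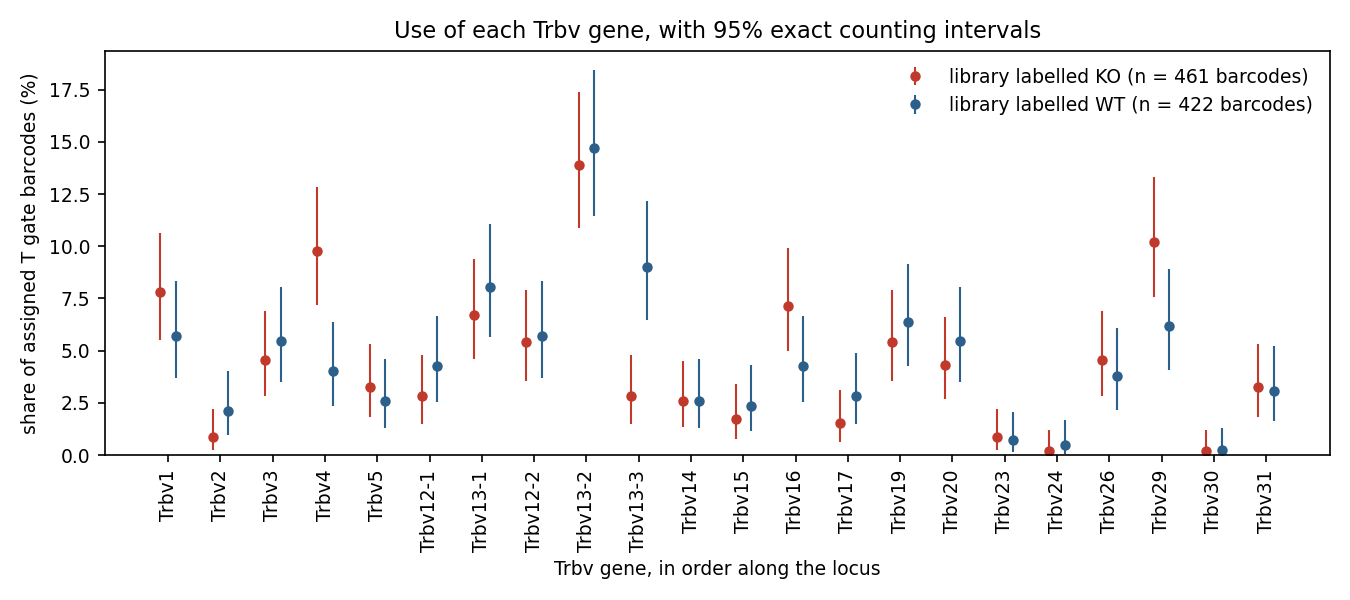
Share of assigned T gate barcodes (vertical axis, percent) led by each Trbv gene with at least 1 assigned barcode, in order along the locus, for 461 KO and 422 WT barcodes; error bars are 95% exact binomial intervals for counting error. Trbv13-2 is highest in both at 13.9% (KO) and 14.7% (WT), and the widest gaps are at Trbv4 (9.76% KO, 4.03% WT) and Trbv13-3 (2.82% KO, 9.0% WT).

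Of the 16 segments with at least 20 assigned barcodes over both libraries, 3 led a share of KO barcodes at least 1.5-fold larger and 2 a share at least 1.5-fold smaller than in WT. As background, among 10208 genes the share of T gate barcodes with a UMI was at least 1.5-fold higher in KO for 7.76% and at least 1.5-fold lower for 5.76%, a related but not identical measure since its denominator is all T gate barcodes. Trbv4 led 45 of 461 KO barcodes (9.76%, 7.21% to 12.8%) and 17 of 422 WT barcodes (4.03%, 2.36% to 6.37%), a log2 ratio of 1.28 (0.44 to 2.17). Trbv29 led 47 KO (10.2%) and 26 WT barcodes (6.16%), a log2 ratio of 0.73 with an interval that starts at 0.01. Trbv16 led 33 KO (7.16%) and 18 WT barcodes (4.27%), a log2 ratio of 0.75 (-0.12 to 1.66). Trbv13-3 led 13 KO barcodes (2.82%, 1.51% to 4.77%) and 38 WT barcodes (9.0%, 6.45% to 12.2%), a log2 ratio of -1.68 (-2.71 to -0.73). Trbv12-1 led 13 KO (2.82%) and 18 WT barcodes (4.27%), a log2 ratio of -0.60 (-1.75 to 0.51). The intervals of Trbv16 and Trbv12-1 span equal use. The other 11 of the 16 stayed within 1.5-fold. Since each genotype is 1 pool, mice that differ and genotypes that differ cannot be told apart in any of these ratios.

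The 2 most used KO segments after Trbv13-2 were carried by 1 clonotype each. Of the 45 KO barcodes led by Trbv4, all with a contig, 26 (57.8%) belonged to the clonotype of 28 barcodes shown above, which was named TRBV10 with TRBJ2-1. All 28 of its barcodes were in the CD8 gate, and they held 70 Trbv4 UMIs and 1 UMI of another Trbv gene. Of the 38 KO barcodes led by Trbv29 that had a contig, 26 (68.4%) belonged to the Trbv29 clonotype of 28 barcodes, which was joined to TRBJ2-7. It had 27 barcodes in the CD8 gate and 94 Trbv29 UMIs. In WT the largest clonotype held 3 of 15 barcodes with a contig for Trbv4 and 1 of 20 for Trbv29.

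Over all segments, the KO T gate had 303 clonotypes in 424 barcodes, of which 10 reached 4 barcodes and together held 118, and the WT T gate had 381 clonotypes in 400 barcodes, of which 1 reached 4 barcodes. The 10 KO clonotypes used Trbv4, Trbv29, Trbv13-2 (17 and 5 barcodes), Trbv20 (10), Trbv16 (9), Trbv26 (7), Trbv5 (6), Trbv13-1 (4) and Trbv14 (4). The Trbv13-2, Trbv13-1 and Trbv14 clonotypes of 5, 4 and 4 barcodes had no barcode in the CD8 gate and 4, 3 and 3 in the CD4 gate. The 7 larger ones lay mostly in the CD8 gate, with 5 of 9 for Trbv16 as the lowest count. Pdcd1, which encodes the receptor PD-1 of activated and exhausted T cells, had a UMI in 13 of 28 barcodes of the Trbv4 clonotype and 15 of 28 of the Trbv29 clonotype. Over the other KO clonotypes named here it ran from 1 of 4 (Trbv14) to 6 of 7 (Trbv26). The share in the remaining CD8 gate barcodes is not given, and whether these counts are unusual was not tested.

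Counting each clonotype once moved the Trbv29 ratio to the other side of 0, with an interval that spans equal use, and left Trbv13-3 lower in KO. The clonotypes of at least 4 barcodes were also left out, an alternative chosen after seeing the data. Trbv4 then led 19 of 357 KO (5.32%) and 17 of 418 WT barcodes (4.07%). The log2 ratio was 0.39 (interval -0.63 to 1.42), against 1.28 with them. Trbv29 led 21 KO (5.88%) and 26 WT barcodes (6.22%), a log2 ratio of -0.08 (-0.98 to 0.81). Barcodes without a contig have no known clonotype and were kept. Of the 47 KO barcodes led by Trbv29, 38 had a contig, so the kept ones may include members of its large clonotype. Each contig clonotype was then counted once, over 299 KO and 371 WT clonotypes. Trbv4 had 19 KO (6.35%) and 14 WT clonotypes (3.77%), a log2 ratio of 0.75 (-0.32 to 1.86). Trbv29 had 14 (4.68%) and 21 (5.66%), a log2 ratio of -0.27 (-1.36 to 0.77). Trbv13-3 had 11 KO (3.68%) and 31 WT clonotypes (8.36%), a log2 ratio of -1.18 (-2.32 to -0.15). Trbv16 had 24 KO (8.03%) and 14 WT clonotypes (3.77%), a log2 ratio of 1.09 (0.08 to 2.15). Trbv1, within 1.5-fold over barcodes, had 33 KO (11%) and 20 WT clonotypes (5.39%), a log2 ratio of 1.03 (0.19 to 1.91). Across the 22 genes used, the Pearson correlation of KO and WT shares was 0.77 over barcodes, 0.83 without the clonotypes of at least 4 barcodes, and, for 21 genes, 0.74 over clonotypes; genes are not replicates, and these values are descriptions.

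**Figure D4:**
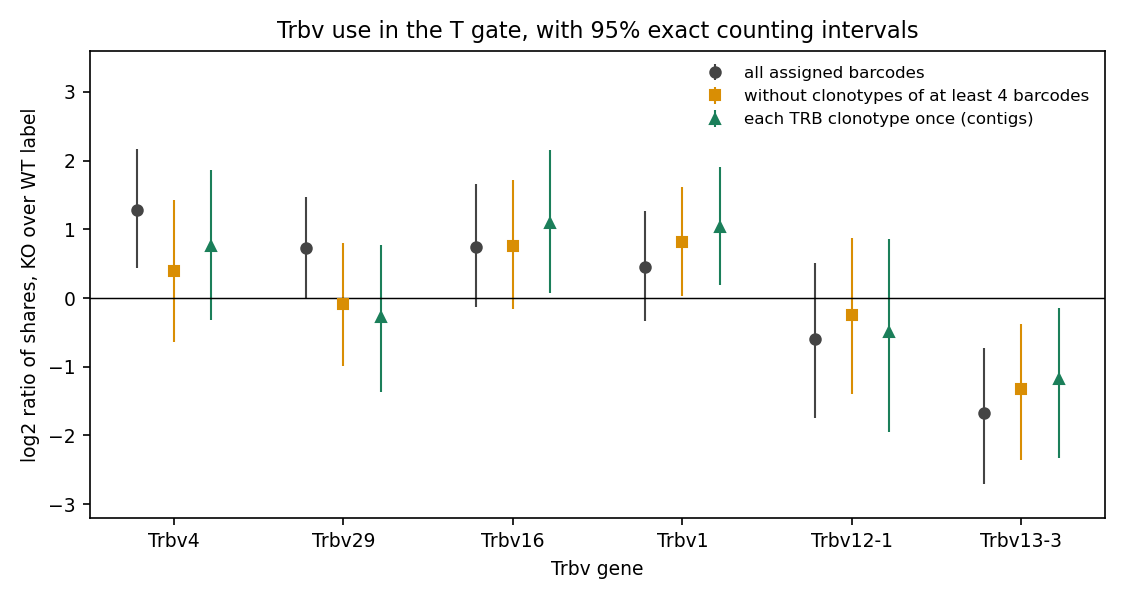
Log2 ratio of the KO share to the WT share of T gate use (vertical axis) for 6 Trbv genes, over all assigned barcodes (circles), without barcodes of clonotypes with at least 4 barcodes (squares), and over contig clonotypes counted once (triangles); error bars are 95% exact intervals for counting error. Trbv4 lies at 1.28, 0.39 and 0.75 and Trbv29 at 0.73, -0.08 and -0.27, while Trbv13-3 lies at -1.68, -1.32 and -1.18.

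In the CD8 gate, 228 KO and 171 WT barcodes were assigned. Of the 8 genes with at least 20 barcodes over both libraries, 3 were at least 1.5-fold higher in KO and 2 at least 1.5-fold lower, beside a background of 11.2% higher and 11.5% lower among 8025 genes for the share of barcodes with a UMI. These 2 counts were unstable: the number higher was 1 with each clonotype once, 1 without the clonotypes of at least 4 barcodes and 0 without the largest clonotype of each gene, and the number lower was 0 with at least 2 UMIs of the leading gene, 0 without the clonotypes of at least 4 barcodes and 8 over Trbv UMIs. Trbv4 led 35 KO (15.4%, 10.9% to 20.7%) and 8 WT barcodes (4.68%, 2.04% to 9.01%), a log2 ratio of 1.71 (0.58 to 3.03), and without the clonotypes of at least 4 barcodes 9 of 142 KO and 8 of 167 WT barcodes. Trbv29 led 37 KO (16.2%) and 16 WT barcodes (9.36%), a log2 ratio of 0.79 (-0.09 to 1.74), and without those clonotypes 12 KO and 16 WT barcodes. Trbv1 led 18 KO (7.89%, 4.75% to 12.2%) and 3 WT barcodes (1.75%, 0.363% to 5.04%), a log2 ratio of 2.17 (0.39 to 4.58). Its 33 KO T gate barcodes with a contig fell into 32 clonotypes, the largest of 2 barcodes. In the unassigned gate Trbv1 led 11 of 164 KO (6.71%) and 17 of 190 WT barcodes (8.95%). Trbv3 led 8 KO (3.51%) and 15 WT barcodes (8.77%) of the CD8 gate, a log2 ratio of -1.32 (-2.77 to 0.01), and 4 of those WT barcodes were the Trbv3 clonotype shown above. Without clonotypes of at least 4 barcodes the Trbv3 ratio was -0.23 (-1.74 to 1.22), and with each clonotype once, 7 of 117 KO and 9 of 144 WT, it was -0.06. Trbv13-1 led 11 KO (4.82%) and 16 WT barcodes (9.36%), a log2 ratio of -0.96 (-2.21 to 0.24).

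Trbv13-3 led a smaller share of KO than of WT barcodes in each of the 4 gates, but the interval of the ratio over barcodes excluded equal use in the CD8 gate alone. It led 4 of 228 KO and 13 of 171 WT barcodes in the CD8 gate, 0 of 44 and 4 of 35 in the CD4 gate, 1 of 25 and 6 of 26 in the Foxp3 gate, and 8 of 164 and 15 of 190 unassigned barcodes. The log2 ratio was -2.12 (-4.19 to -0.42) in the CD8 gate, -2.53 (-8.05 to 0.51) in the Foxp3 gate and -0.69 (-2.14 to 0.63) among unassigned barcodes. Over Trbv UMIs it was -2.97 (-4.52 to -1.68), -2.25 (-5.48 to -0.02) and -0.24 (-1.21 to 0.70) in the same order. The CD4 gate held 0 KO and 9 WT UMIs, with an upper limit of -1.31. UMIs of 1 barcode are not independent, so the intervals over UMIs are too narrow. Over barcodes of the CD8 gate the log2 ratio was -1.47 (-3.54 to 0.23) without clonotypes of at least 4 barcodes. The counts of the CD4 and Foxp3 gates are small, with intervals of 3.20% to 26.7% and 8.97% to 43.6% around the WT shares of 11.4% and 23.1%. Its 38 WT barcodes were spread, with 33 contigs in 31 clonotypes and none above 2 barcodes. The contigs alone gave 11 of 420 KO (2.62%) and 34 of 388 WT barcodes (8.76%). All 45 of its contig barcodes over both libraries had a Trbv13-3 UMI.

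Between gates of the same library, 2 segments stood out, both picked after their values were seen. Trbv29 led 37 of 228 KO and 16 of 171 WT barcodes in the CD8 gate, and 1 of 69 KO barcodes (1.45%, 0.0367% to 7.81%) and 0 of 61 WT barcodes in the CD4 and Foxp3 gates together. A count of 0 of 61 allows a share of up to 4.92%. For KO the log2 ratio of CD8 to CD4 and Foxp3 shares was 3.49 (0.92 to 8.83). The KO count includes CD8 barcodes of the Trbv29 clonotype of 28: without clonotypes of at least 4 barcodes Trbv29 led 12 of 142 CD8 barcodes and 1 of 60 CD4 and Foxp3 barcodes, a log2 ratio of 2.34 (-0.41 to 7.76) that spans equal use. In WT the same alternative left 16 of 167 CD8 and 0 of 61 CD4 and Foxp3 barcodes. Trbv31, the segment beyond the constant genes, ran the other way: it led 2 of 228 KO (0.877%) and 1 of 171 WT barcodes (0.585%) in the CD8 gate, 3 of 69 (4.35%) and 3 of 61 (4.92%) in the CD4 and Foxp3 gates, and 10 of 164 (6.10%) and 9 of 190 (4.74%) unassigned barcodes. The intervals of its CD8 to CD4 and Foxp3 ratio span 0 in both libraries. In the Foxp3 gate alone the leading segments were Trbv13-2 (5 of 25 barcodes) and Trbv20 (4) in KO and Trbv13-3 (6 of 26) and Trbv20 (5) in WT. In the CD4 gate they were Trbv13-2 (10 of 44) and Trbv13-1 (8) in KO and Trbv13-2 (6 of 35) and Trbv13-3 (4) in WT.

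A minority of barcodes held more than 1 Trbv gene. They were 70 of 486 KO barcodes with a Trbv UMI, 14.4% (11.4% to 17.8%), and 52 of 442 WT barcodes, 11.8% (8.91% to 15.1%). With at least 2 UMIs of each gene required, 14 KO (2.88%) and 10 WT barcodes (2.26%) remained. They were deeper, at a median of 4124.5 UMIs (KO) and 4418.5 UMIs (WT), against 2870.5 and 3099 UMIs for barcodes with 1 gene. The most frequent pair in KO was Trbv12-2 with Trbv13-2, in 9 barcodes. No doublet caller was run, and the part of doublets, of free RNA and of a second rearranged allele in these barcodes was not tested. Barcodes with at least 5 Lyz2 UMIs or at least 2 Cd79a and Cd79b UMIs made up 11.8% of the KO and 12.1% of the WT T gate.

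Summed over all 35 members, Trbv RNA made up 240 CPM of the KO T gate (1118 UMIs) and 264 CPM of the WT T gate (982 UMIs), a log2 ratio of -0.14 (-0.27 to -0.02). The direction differed between gates. In the CD8 gate Trbv RNA was higher in KO, 341 against 293 CPM, a log2 ratio of 0.22 (0.04 to 0.40). In the CD4 gate the log2 ratio was -0.36 (-0.78 to 0.07) and in the Foxp3 gate -0.85 (-1.31 to -0.38). Unassigned barcodes stood at 152 CPM (KO) and 219 CPM (WT). Over the whole T gate the constant segments were higher in KO. Trbc1 stood at 207 CPM (KO) and 118 CPM (WT), a log2 ratio of 0.80 (0.64 to 0.97), and Trbc2 at 372 and 239 CPM, a log2 ratio of 0.64 (0.52 to 0.76); both encode near-identical constant regions, and how the counting split reads between them is uncertain. Trac, the alpha constant segment, stood at 265 CPM (KO) and 138 CPM (WT), a log2 ratio of 0.95, and all 128 Trav segments together at 85.6 and 93.1 CPM, a log2 ratio of -0.12. The Trav sum too was higher in KO in the CD8 gate, a log2 ratio of 0.60 (0.25 to 0.96). It was lower in the CD4 gate (-1.75) and the Foxp3 gate (-0.95).

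The number of Trbv UMIs per Trbc UMI was accordingly lower in KO, 0.414 (0.386 to 0.444), than in WT, 0.739 (0.680 to 0.804). It was lower in every gate: 0.388 (KO) and 0.765 (WT) in the CD8 gate, 0.505 and 0.869 in the CD4 gate, 0.513 and 0.827 in the Foxp3 gate, and 0.426 and 0.681 among unassigned barcodes. The intervals of the CD4 gate do not overlap (0.397 to 0.639 in KO, 0.643 to 1.17 in WT), and those of the Foxp3 gate overlap. Trav UMIs per Trac UMI gave 0.323 (KO) and 0.677 (WT) in the T gate. In empty droplets the ratio of Trbv to Trbc UMIs was 1.45 (KO; 851 and 587 UMIs) and 3.87 (WT; 642 and 166 UMIs), again lower in KO. What sets this ratio was not tested.

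**Figure D5:**
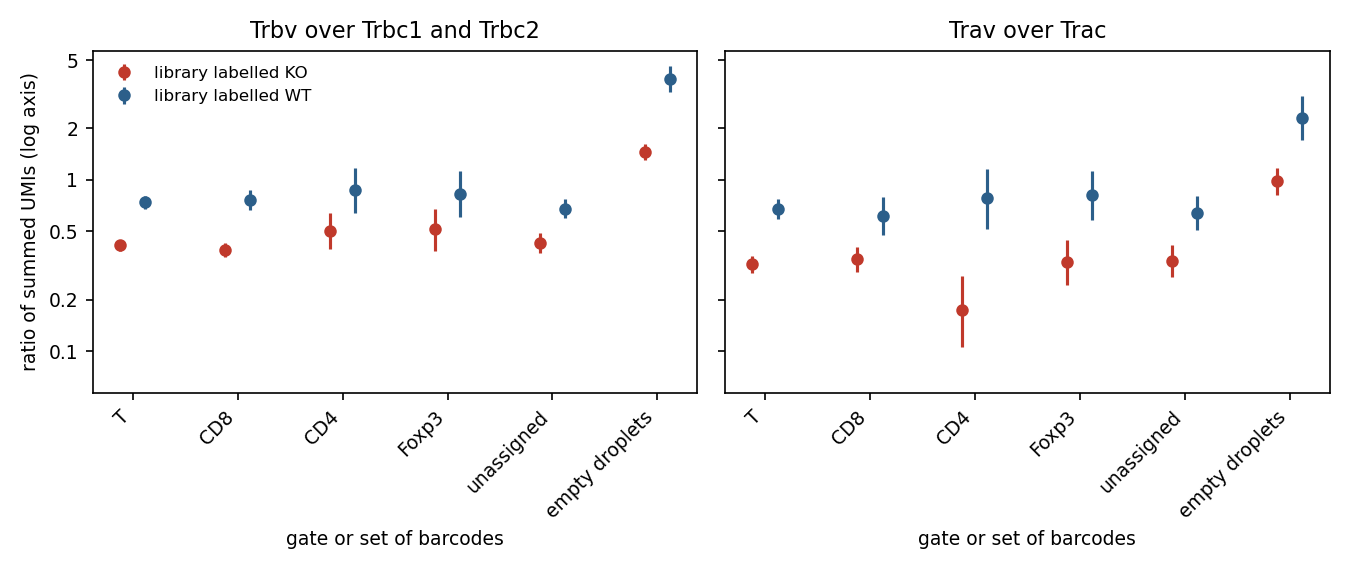
Ratio of summed UMIs on a log axis, Trbv over Trbc1 and Trbc2 (left) and Trav over Trac (right), in each gate and in empty droplets of 10 to 100 UMIs (horizontal axis), KO left of WT; error bars are 95% exact intervals for counting error. The KO ratio lies below the WT ratio throughout, at 0.414 and 0.739 for Trbv in the T gate and 1.45 and 3.87 in empty droplets.

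In CPM, 19 members had at least 20 UMIs over both T gates. Of these, 3 were at least 1.5-fold higher in KO (Trbv4, Trbv16 and Trbv29) and 6 at least 1.5-fold lower (Trbv2, Trbv3, Trbv13-3, Trbv15, Trbv17 and Trbv19), against a background of 11.9% higher and 6.14% lower among 10387 genes. Their median log2 ratio was -0.33, beside 0.10 over all genes tested. Trbv4 stood at 24.4 CPM (KO) and 9.15 CPM (WT), and Trbv13-3 at 5.36 and 20.5 CPM. Trbv19, which led 25 KO and 27 WT barcodes, had 50 UMIs in KO and 76 in WT, a log2 CPM ratio of -0.93 (-1.48 to -0.40). By contigs it had 19 of 420 KO and 27 of 388 WT barcodes, a log2 ratio of -0.62 (-1.55 to 0.28). With each clonotype once its log2 ratio was -0.08.

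Of 18 other receptor genes listed, 14 had at least 20 UMIs; 4 were at least 1.5-fold higher in KO (Trbc1, Trbc2, Trac and Tcrg-C2) and 2 lower (Trdc and Tcrg-C1), beside 11.9% higher and 6.14% lower among all 10387 genes, with a median log2 ratio of 0.14 beside 0.10 over all genes. Cd3d, Cd3e and Cd3g had log2 ratios of 0.17, 0.05 and 0.27, and Lck, the kinase that starts receptor signalling, 0.29. Trdc stood at 14.2 CPM in KO and 41.2 CPM in WT, and Tcrg-C2, a gamma constant segment, at 25.1 and 7.0 CPM. The CD8 gate held 89 of the 117 Tcrg-C2 UMIs in KO and 3 of the 26 in WT, beside 5 (KO) and 9 (WT) Trdc UMIs. Ptcra, the partner of the beta chain in immature thymocytes, and Rag2, part of the recombinase, were at 0 in both T gates, and Rag1 had 1 UMI, in WT. The 14 Trbj and 2 Trbd symbols had no UMI.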

How the data were processed

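The RNA files hold deposited raw UMI counts per gene and barcode; their headers name Cell Ranger 3.1.0, while build mm10 and Seurat 3.2.0 under R 3.6.1 stand in the submitters' processing notes. The receptor files list the authors' contigs with their V gene names and CDR3 sequences, without a unit of their own. Libraries were grouped by the genotype label. All values here were computed with Python 3.11.15, numpy 2.4.6, scipy 1.17.1 and pandas 2.3.3, and figures with matplotlib 3.10.9, from the whole tables. No doublets were removed. CPM is UMIs per 1e6 UMIs of a gate. Shares carry Clopper-Pearson intervals, sums Poisson intervals and ratios conditional binomial intervals at 95%. A limit for 0 is 3 counts of the total. The interval code was tested on simulated data. Depth limits V gene calls to barcodes with at least 1 Trbv UMI. Thinning drew 1000 UMIs per barcode without replacement, in a separate draw for each set of barcodes. Named are genes with at least 5% use in a library, those 1.5-fold apart with at least 20 barcodes in the T or CD8 gate, those under 80% recovery and those with at most 2 UMIs; others are named as chosen later or in full counts. Members, lists, gates and thresholds were chosen with earlier results of these data known. With 1 library per genotype, differential expression tests were not run. The effect of other filters, gates, assignments, names and scalings is given at the end; 4 of them were chosen after seeing the data.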

Additional observations from a re-analysis of the deposited data

Results flagged for a closer look

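The Trbv13-1 ratio of KO to WT use had opposite signs in different gates of the same libraries, and the interval of the CD8 ratio spans equal use. In the CD8 gate it led 11 of 228 KO and 16 of 171 WT assigned barcodes, a log2 ratio of -0.96 (-2.21 to 0.24). In the CD4 and Foxp3 gates together it led 9 of 69 KO and 1 of 61 WT barcodes, a log2 ratio of 2.99 (0.14 to 8.45). The Trbv13-1 clonotype of 4 barcodes in KO had 3 in the CD4 gate. Without clonotypes of at least 4 barcodes the CD8 ratio was -0.31 (-1.56 to 0.89), and the CD4 and Foxp3 gates held 6 of 60 KO and 1 of 61 WT barcodes, a log2 ratio of 2.61 (-0.43 to 8.13). With each clonotype once the ratios were -0.59 (-2.16 to 0.84) and 2.83 (-0.13 to 8.33), so both intervals span equal use under either alternative. The difference between the gates was not tested, since each genotype is 1 pool.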

How the results depend on the processing

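Of 74 alternative values of the main counts and shares, 59 stayed within the range set by 1.5 times the count or by the interval. T gate detection was 52.5% (KO) and 57% (WT) with at least 2000 UMIs and 800 genes, 47.2% and 54.5% with at least 2 Cd3 UMIs, and 50.2% and 58.6% in barcodes with a Trbc UMI. Agreement was 99.5% and 99.2% with synonyms and joint names resolved. The 2 genes at least 1.5-fold lower in KO became 1 with the looser (500 UMIs, 250 genes) or the stricter filter, with only barcodes of 1 Trbv gene, with each clonotype once, without clonotypes of at least 4 barcodes and without the largest clonotype of each gene, and 5 over Trbv UMIs. In CPM the 6 lower members became 8 with no UMI minimum and with median ratio size factors, which shifted all log2 ratios by -0.10, and 5 with at least 50 UMIs; 3 were higher in each case. The Trbv29 log2 ratio changed sign to -0.27 (T gate) and -0.29 (CD8 gate) with each clonotype once. It was -0.08 and -0.18 without clonotypes of at least 4 barcodes, and -0.10 and -0.13 without the largest clonotype. The intervals of all these values span equal use. These alternatives leave out or merge barcodes of its clonotype of 28. Single genes gave 115 further values within range, 3 outside it, all of Trbv4, and 6 of reversed sign, the Trbv29 values just given. Gene counts in the CD8 gate gave 17 within and 9 outside it, running from 0 to 4 higher and from 0 to 8 lower, and detection in single gates 39 within and 3 outside. No paired analysis was possible because each genotype has 1 library.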

Other observations

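The receptor tables held many non-productive TRBV26 contigs, which no comparison above uses. There were 610 in 608 barcodes in KO and 1512 in 1509 barcodes in WT, of 1101 and 1882 non-productive TRB contigs in all. A J segment was missing in 97.9% (KO) and 99.8% (WT) of them. Of their barcodes, 475 KO and 1157 WT passed the RNA filters, but 64 KO and 59 WT were in the T gate. At least 5 Lyz2 UMIs were found in 263 of the 475 KO barcodes (55.4%) and 627 of the 1157 WT barcodes (54.2%), against 43.2% and 40.8% of all barcodes that passed. A Trbv26 UMI was found in 10 of the KO and 2 of the WT barcodes. Productive TRBV26 contigs numbered 34 in KO and 20 in WT. Other V genes together had 170 (KO) and 120 (WT) non-productive contigs, with 84 of 88 KO and 63 of 71 WT barcodes that passed the filters in the T gate.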
